A study of Mus musculus with 36 samples.

Results

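Collagens are the main structural proteins of the extracellular matrix. Each molecule is a triple helix of alpha chains, identical or different, and the chains are encoded by a family of genes named Col, a type number, the letter a and a chain number. Fibrillar collagens form the fibrils of connective tissue, bone and cartilage, network collagens form basement membranes, beaded-filament collagens lie around cells, and fibril-associated collagens coat the fibrils. In the nose, fibroblasts of the lamina propria, bone cells and chondrocytes make fibrillar collagens, while basement membranes lie under the epithelia and around vessels.

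All genes with a symbol of this form were taken, which gave 44 genes among 24574 with a value in all 36 libraries. The libraries were made from the main olfactory epithelium (MOE), the vomeronasal organ (VNO) and the olfactory bulb (OB) of C57BL/6 mice of 6 months, with 12 libraries per tissue. In each tissue, 3 libraries came from females and 3 from males kept with their own sex only (SF and SM, sex-separated), and 3 from females and 3 from males kept with the other sex (CF and CM, sex-combined), from weaning at 3 weeks of age with 4 animals per cage. The labels name no mutant allele or drug in any group. Each library is a pool of RNA from 2 mice by the series' design text. The study's text instead gives pools of 3 RNA samples, and its counts of mice per group differ between places. In either case p-values measure the spread between pools and not between single mice. By the study's text, the 3 tissues were taken from the same mice, and the fits across tissues treat their libraries as independent. With the sex, housing and pool number as a block, 28, 20 and 33 collagens were called between MOE and VNO, MOE and OB, and VNO and OB, the same counts as without it. Values are FPKM, a fragment count divided by transcript length and by the library's mapped fragments, summed over the transcripts of a gene. The MOE tables list slightly more transcripts (40150) than those of VNO and OB (40008), and the scaling was done per library, which touches every level set across tissues. The estimated number of fragments behind the values ranged from 2897069 to 6511410 per library.

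The tissue labels were checked with markers. Omp, made by mature sensory neurons of the nose, had 982.5 ± 149.4 FPKM (SD, n = 12) in MOE against 101.1 ± 12.5 in the VNO libraries and 35.1 ± 4.38 in those of OB. The vomeronasal channel gene Trpc2 was highest in VNO (42.95 ± 4.85, MOE 0.938 ± 0.246, OB 0.199 ± 0.256), and Gad1, made by inhibitory neurons, was highest in OB (179.6 ± 15.1, MOE 0.236 ± 0.180, VNO 1.36 ± 0.474). VNO SF replicate 2 stood apart from the other VNO libraries in cartilage genes. MOE CM replicate 3 had lower values in general, with a median log2 difference from the median of the other 11 MOE libraries of -0.567 over all genes and -0.508 over the collagens tested. It had the fewest estimated fragments of the 36 libraries (2897069). By the study's text it also had the lowest shares of reads aligned and of concordant pairs. Tissue calls that rest on VNO SF replicate 2 or MOE CM replicate 3, and counts of collagens by sex and housing, are given with and without it.

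The collagens were most abundant in VNO. The mean FPKM was highest in VNO for 38 of the 44 genes, highest in MOE for 5 (Col2a1, Col9a1, Col9a2, Col10a1 and Col26a1) and highest in OB for Col9a3, and OB had the lowest mean for 33. The sum over the 44 genes was 1301 ± 146.7 FPKM (SD, n = 12) in VNO, 302.8 ± 41.9 in MOE and 47.7 ± 2.53 in OB, and the ranges (1022 to 1493, 210.3 to 369.5 and 43.4 to 52.05) did not overlap. For 33 of the 44 genes, all 12 VNO libraries lay above all 24 libraries of MOE and OB, and for 23, all 12 OB libraries lay below the other 24. Among the 37 collagens with a mean of at least 0.5 FPKM over the 36 libraries, these numbers were 27 and 22, where 11.8% and 17.9% of all 14627 genes above this level were separated in the same way. The 7 collagens under this level (Col4a3, Col4a4, Col6a4, Col6a5, Col6a6, Col19a1 and Col26a1) were left out of the tests, and a gene that passes only through the tissue where it is high has to differ between tissues. A mean of at least 10 FPKM was reached by 13 collagens in VNO, by 5 in MOE and by 0 in OB. In whole tissue, more collagen-making cells and more RNA per such cell cannot be told apart.

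**Figure D1:**
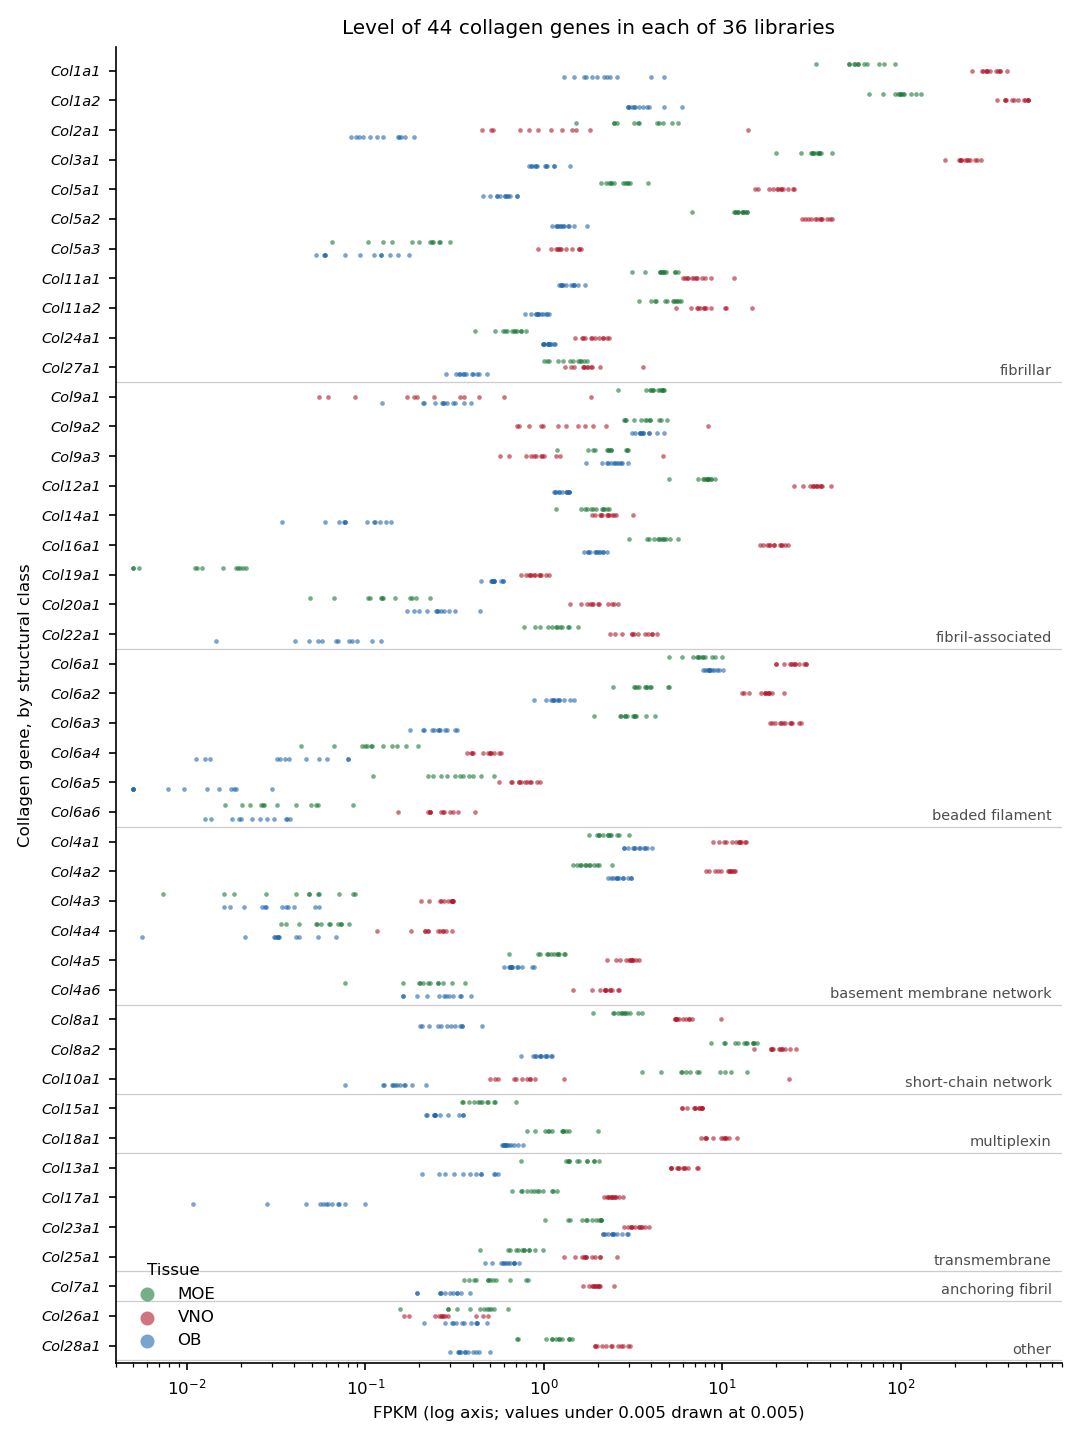
FPKM of the 44 collagen genes (rows, by structural class) in each of 36 libraries on a log axis, with 12 points per tissue and gene. VNO points lie to the right of the others for most genes, while Col2a1, Col9a1, Col9a2 and Col10a1 have higher means in MOE.

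In limma fits on log2(FPKM + 0.5), a gene was called between tissues at an adjusted p under 0.05 and a difference of at least 1 on the log2 scale. Between VNO and OB, 32 of the 37 collagens tested were called higher in VNO, against 20.2% of all genes tested, and 1, Col9a2, was called lower, against 19% of all genes. Between MOE and OB, 20 were called higher in MOE (21.1% of all genes) and 0 lower in limma (17.3% of all genes), while 34 of the 37 had an unadjusted p under 0.05 in either direction, as did 85.4% of all genes. Between MOE and VNO, 24 were called lower in MOE (9.73% of all genes) and 4 higher (11.8% of all genes). The median difference over the collagens tested was 2.05 for VNO minus OB, 1.19 for MOE minus OB and -1.27 for MOE minus VNO, beside medians over all genes of -0.124, 0.0657 and 0.147. With no minimum level and all 44 genes in the fits, 33 collagens were higher and 1 lower in VNO than in OB, 20 higher and 1 lower in MOE than in OB, and 4 higher and 25 lower in MOE than in VNO. Upper quartile scaling moved the median of all genes to -0.0190 for MOE minus VNO and 0.0342 for VNO minus OB. It turned the calls over all genes between MOE and VNO from 1729 higher and 1423 lower in MOE to 1324 and 1926, with 2 collagens higher and 26 lower. Between VNO and OB, the calls over all genes went from 2954 higher and 2778 lower in VNO to 3336 and 2260, with 32 collagens higher and 0 lower.

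**Figure D2:**
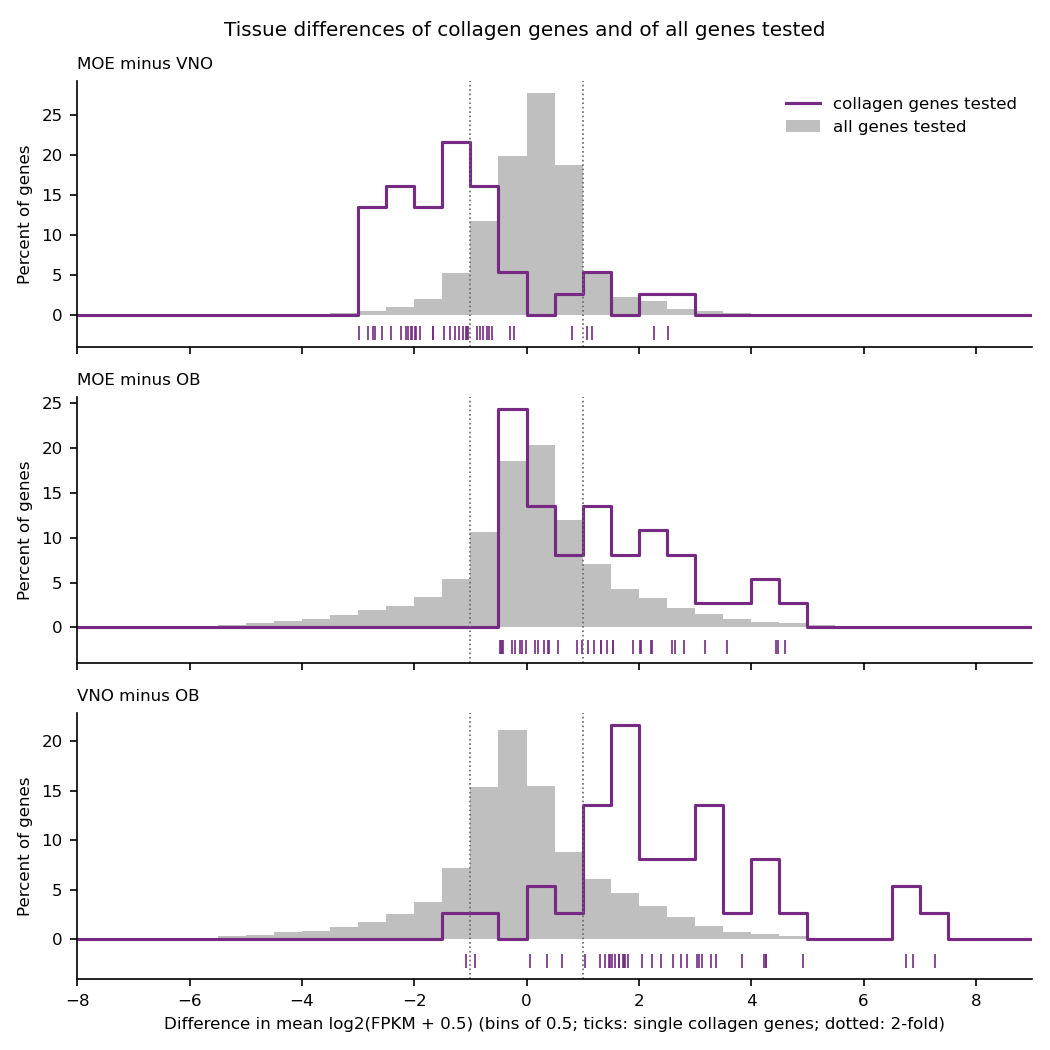
Percent of genes by their difference in mean log2(FPKM + 0.5) between 2 tissues, in bins of 0.5, for all genes tested (grey bars) and the 37 collagens tested (line), with a tick for each collagen. The collagens lie mostly to the left in MOE minus VNO (median -1.27), to the right in VNO minus OB (median 2.05) and between these in MOE minus OB (median 1.19).

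The fibrillar collagens carried most of the family's level. All 11 fibrillar chains were tested. Of these, 10 were called higher in VNO than in OB (20.2% of all genes) and 9 higher in MOE than in OB (21.1%). Between MOE and VNO, 7 were lower (9.73%) and 1 higher (11.8%) in MOE. Col1a1, Col1a2 and Col3a1, the chains of types I and III that form the fibrils of bone, skin and most connective tissue, made up 76.8% ± 1.82 (SD, n = 12) of all collagen FPKM in VNO, 64.0% ± 3.88 in MOE and 14.6% ± 3.62 in OB. Col1a2 (chromosome 6 of mm9, 4455618 to 4491543) ranged from 346.8 to 518.4 FPKM in VNO (median 441.5), from 66.0 to 130.5 in MOE (median 99.8) and from 2.945 to 5.95 in OB (median 3.32). The ranges did not overlap. Its difference was 6.76 for VNO minus OB (standard error 0.0895, adjusted p = 1.40e-32), 4.61 for MOE minus OB and -2.15 for MOE minus VNO. Col1a1 (chromosome 11, 94797538 to 94814356) had 321.5 ± 40.3 FPKM in VNO, 61.4 ± 15.5 in MOE and 2.34 ± 1.02 in OB. Col3a1 (chromosome 1, 45368383 to 45406551) had 232.9 ± 28.5 in VNO, 32.6 ± 5.06 in MOE and 1.002 ± 0.166 in OB, and its difference of 7.28 between VNO and OB was the largest of the 37 collagens tested. For all these chains, each VNO library was above each MOE library and each MOE library above each OB library. Of the minor chains that are mixed into type I fibrils, Col5a1 had 20.6 ± 3.16, 2.69 ± 0.480 and 0.5955 ± 0.0752 FPKM in VNO, MOE and OB, and Col5a2 had 34.4 ± 4.29, 12.2 ± 1.865 and 1.31 ± 0.173. Col5a3 was lower, at 1.30 ± 0.213, 0.196 ± 0.0725 and 0.102 ± 0.0415, and its MOE and OB libraries overlapped. Col24a1 had 1.92 ± 0.266, 0.650 ± 0.1055 and 1.06 ± 0.0532 in the same order of tissues, so that MOE was lowest, and Col27a1 had 1.84 ± 0.591, 1.39 ± 0.262 and 0.3745 ± 0.0543, with overlap between VNO and MOE.

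Of the fibril-associated chains, 8 of 9 were tested. Between VNO and OB, 5 were called higher (20.2% of all genes) and 1 lower (19%) in VNO. In MOE, 4 were higher than in OB (21.1%), and 2 were higher (11.8%) and 4 lower (9.73%) than in VNO. Col12a1 (chromosome 9, 79446794 to 79566529), whose product decorates type I fibrils, ranged from 25.25 to 40.4 FPKM in VNO (median 33.5), from 5.01 to 9.085 in MOE (median 8.22) and from 1.141 to 1.39 in OB (median 1.30), without overlap. Col16a1 had 19.7 ± 2.195, 4.42 ± 0.672 and 1.97 ± 0.178 FPKM in VNO, MOE and OB, and its difference of 0.99 for MOE minus OB was called without MOE CM replicate 3 (1.02). Col14a1, which also binds type I fibrils, had similar levels in VNO (2.29 ± 0.336) and MOE (1.91 ± 0.326), with overlap and a difference of -0.22 for MOE minus VNO that was under the 2-fold limit, and 0.0927 ± 0.0317 in OB. Col22a1, known from tissue junctions such as that of muscle and tendon, had 3.36 ± 0.6355, 1.16 ± 0.2215 and 0.0700 ± 0.0299 FPKM in VNO, MOE and OB. Col19a1 and Col20a1 were lowest in MOE. Col19a1 had 0.8996 ± 0.0968 FPKM in VNO and 0.5285 ± 0.0407 in OB, while in MOE it was listed at 0 in 1 library and reached at most 0.0214, and Col20a1 had 2.02 ± 0.365 in VNO, 0.261 ± 0.0711 in OB and 0.136 ± 0.0529 in MOE. The type IX chains of this class are described with the cartilage collagens.

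The basement membrane chains differed less between MOE and OB than between VNO and either. Of the 4 type IV chains tested of 6, 4 were called higher in VNO than in OB (20.2% of all genes) and 4 lower in MOE than in VNO (9.73%). Between MOE and OB, 0 were called higher (21.1%) or lower (17.3%) in MOE in limma, although 3 had an unadjusted p under 0.05 there (85.4% of all genes). Col4a1 and Col4a2, the chains of nearly all basement membranes, are neighbours on chromosome 8 (mm9) whose annotated loci overlap by 22 bases. Col4a1 ranged from 8.845 to 13.65 FPKM in VNO (median 12.2), from 2.805 to 4.03 in OB (median 3.33) and from 1.80 to 3.01 in MOE (median 2.29). MOE and OB overlapped at their ends, and the difference was -0.46 for MOE minus OB (standard error 0.0681, adjusted p = 3.31e-07). Col4a2 had 10.3 ± 1.26 FPKM in VNO, 2.68 ± 0.263 in OB and 1.80 ± 0.261 in MOE. The neighbours Col4a5 and Col4a6, on the X chromosome, had 2.96 ± 0.323 and 2.22 ± 0.319 FPKM in VNO, 1.09 ± 0.187 and 0.230 ± 0.0714 in MOE, and 0.701 ± 0.0881 and 0.270 ± 0.07315 in OB. Col4a3 and Col4a4, which join Col4a5 in the basement membrane of the kidney glomerulus, did not exceed 0.310 FPKM in any library. Type IV chains made up 14.8% ± 1.16 of the collagen sum in OB, 2.13% ± 0.230 in VNO and 1.84% ± 0.231 in MOE. Col18a1 (chromosome 10, 76514924 to 76629275), the precursor of endostatin in the outer zone of basement membranes, ranged from 7.56 to 12.1 FPKM in VNO (median 9.99), from 0.802 to 2.02 in MOE (median 1.19) and from 0.582 to 0.770 in OB (median 0.620), without overlap. Its relative Col15a1 had 7.06 ± 0.638, 0.461 ± 0.0974 and 0.272 ± 0.0485 FPKM in VNO, MOE and OB, and both were called higher in VNO than in each other tissue.

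The chains of type VI collagen, which forms beaded filaments next to basement membranes, differed from each other in their tissue pattern. Of the 3 chains tested of 6, 3 were called higher in VNO than in OB (20.2% of all genes). In MOE, 3 were lower than in VNO (9.73%) and 2 higher than in OB (21.1%). Col6a1 (chromosome 10, 76171537 to 76188789) ranged from 19.9 to 29.6 FPKM in VNO (median 25.2), from 7.84 to 10.1 in OB (median 8.50) and from 5.01 to 9.95 in MOE (median 7.57). MOE and OB overlapped, and its difference of -0.20 for MOE minus OB was under the 2-fold limit. In OB it had the highest mean FPKM of the 44 genes. Col6a2 had 17.1 ± 2.59, 3.73 ± 0.719 and 1.18 ± 0.157 FPKM in VNO, MOE and OB, and Col6a3, which encodes the largest chain of the classical molecule, had 22.6 ± 2.935, 3.06 ± 0.573 and 0.256 ± 0.0441. The ratio of Col6a1 to Col6a2 was 1.47 ± 0.0741 (SD, n = 12) in VNO, 2.05 ± 0.186 in MOE and 7.46 ± 0.836 in OB. Its ranges of 1.34 to 1.60, 1.74 to 2.33 and 6.28 to 8.85 did not overlap. The ratio of Col6a3 to Col6a1 went the other way, from 0.904 ± 0.0595 in VNO to 0.405 ± 0.0437 in MOE and 0.0294 ± 0.004725 in OB, again without overlap. The alternative chains Col6a4, Col6a5 and Col6a6 stayed under 1 FPKM in all libraries, with VNO means of 0.473, 0.7685 and 0.270, and Col6a5 was listed at 0 in 2 OB libraries.

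Other chain pairs kept closer ratios. Col1a1 to Col1a2, which join in the type I molecule, had an FPKM ratio of 0.728 ± 0.0778 in VNO, 0.610 ± 0.0998 in MOE and 0.625 ± 0.141 in OB, with overlapping ranges, although both genes differed by 6.88 and 6.76 on the log2 scale between VNO and OB. Col4a1 to Col4a2 had 1.13 ± 0.0636, 1.285 ± 0.131 and 1.26 ± 0.188 in the same order, also with overlap. Col5a1 to Col5a2 was 0.5995 ± 0.0598 in VNO, 0.459 ± 0.0681 in OB and 0.2245 ± 0.0481 in MOE, where the highest library (0.3105) lay below the lowest OB library (0.3395). These ratios compare transcripts per length, not protein chains, and were not tested.

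**Figure D3:**
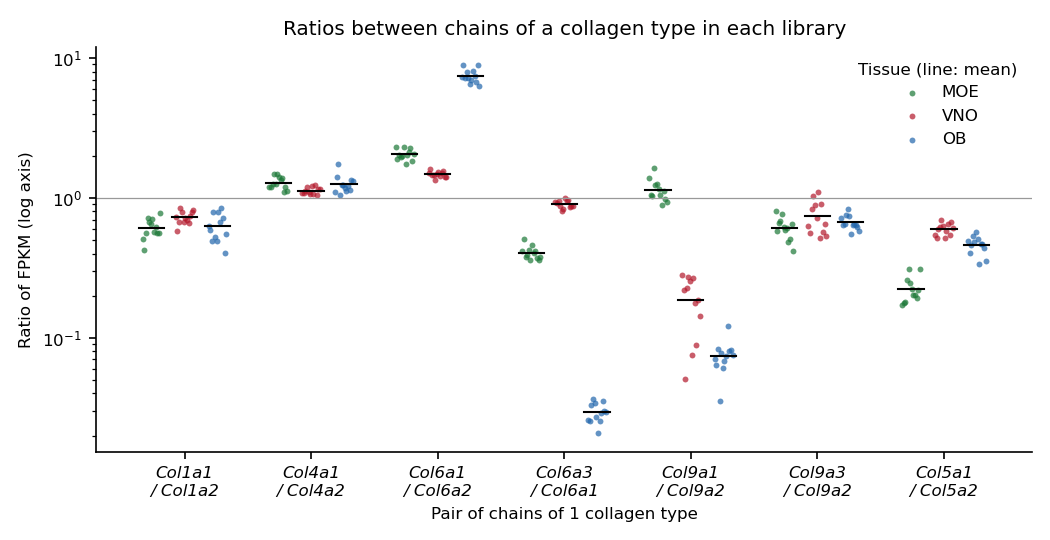
Ratio of FPKM between chains of a collagen type (log axis) in each library, with 12 points per tissue and a line at the mean. Ratios of Col1a1 to Col1a2 and of Col4a1 to Col4a2 overlap between tissues, while Col6a1 to Col6a2 has a mean of 7.46 in OB, Col6a3 to Col6a1 of 0.0294 in OB, and Col9a1 to Col9a2 lies higher in MOE (1.143) than in VNO (0.187) or OB (0.0744).

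The remaining classes were also highest in VNO, apart from Col10a1 and Col26a1. Col8a2 (chromosome 4, 125964038 to 125991574), a short-chain collagen of vessels and the cornea, ranged from 15.1 to 25.9 FPKM in VNO (median 20.8), from 8.67 to 15.6 in MOE (median 13.4) and from 0.7495 to 1.11 in OB (median 0.959). VNO and MOE overlapped, and both lay above OB. Its partner Col8a1 had 6.25 ± 1.21, 2.78 ± 0.430 and 0.297 ± 0.0714 FPKM in VNO, MOE and OB, and its difference of -1.04 for MOE minus VNO fell under the 2-fold limit without VNO SF replicate 2 (-0.99) or MOE CM replicate 3 (-0.9987). Col13a1 (chromosome 10, 61300982 to 61441856), a transmembrane collagen of cell adhesion sites, ranged from 5.14 to 7.33 FPKM in VNO (median 5.885), from 0.745 to 2.03 in MOE (median 1.56) and from 0.208 to 0.556 in OB (median 0.401), without overlap. The hemidesmosome collagen Col17a1 had 2.43 ± 0.163, 0.9145 ± 0.166 and 0.0587 ± 0.0228 FPKM in VNO, MOE and OB, and all its tissue differences were called. Col23a1, another transmembrane chain, had 3.31 ± 0.315, 1.75 ± 0.348 and 2.48 ± 0.281 in this order, and each of its differences was under the 2-fold limit. Col25a1, whose shed part is found in amyloid plaques, had 1.81 ± 0.323, 0.747 ± 0.141 and 0.619 ± 0.0739, called only between VNO and OB. Col7a1 (chromosome 9, 108855790 to 108886920), the anchoring fibril of stratified epithelia, ranged from 1.66 to 2.48 FPKM in VNO (median 1.95), from 0.355 to 0.816 in MOE (median 0.4935) and from 0.194 to 0.387 in OB (median 0.2895), where MOE and OB overlapped. Col28a1 (chromosome 6, 7947808 to 8142617), found in peripheral nerve, ranged from 1.93 to 3.05 FPKM in VNO (median 2.39), from 0.712 to 1.435 in MOE (median 1.19) and from 0.298 to 0.502 in OB (median 0.362), without overlap. Col26a1 had 0.299 ± 0.1025, 0.416 ± 0.130 and 0.356 ± 0.0747 FPKM in VNO, MOE and OB, and the ranges of all tissues overlapped.

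Genes that make and process collagen followed the family in part. Of 20 procollagen enzymes and chaperones, all tested, 10 were called higher and 0 lower in VNO than in OB in limma (20.2% and 19% of all genes). In MOE, 6 were higher and 0 lower than in OB (21.1% and 17.3%), and 0 higher and 6 lower than in VNO (11.8% and 9.73%). The median differences were 1.003 for VNO minus OB, 0.273 for MOE minus OB and -0.572 for MOE minus VNO. In the same order, 19, 19 and 16 of the 20 genes had an unadjusted p under 0.05, beside 86.1%, 85.4% and 83.3% of all genes. P4hb, a subunit of prolyl 4-hydroxylase, had 160.9 ± 12.5 FPKM in VNO, 112.1 ± 16.5 in MOE and 28.5 ± 2.655 in OB. Ppib, a prolyl isomerase, had 127.0 ± 10.3, 121.7 ± 18.6 and 48.15 ± 5.74 in this order, and Serpinh1, the collagen chaperone, had 71.65 ± 12.2, 36.3 ± 5.35 and 10.4 ± 1.18. All of them were called higher in VNO and in MOE than in OB. Of 11 cleavage and cross-linking genes tested of 13, 7 were higher and 2 lower in VNO than in OB (20.2% and 19% of all genes). In MOE, 7 were higher and 2 lower than in OB (21.1% and 17.3%), and 1 higher and 6 lower than in VNO (11.8% and 9.73%). The counts of 2 and 1 were near these shares. The 1 that was higher in MOE than in VNO was Pcolce2, an enhancer of procollagen C-proteinase, with 92.2 ± 17.5 FPKM in MOE, but 1.64 ± 0.540 in VNO and 1.21 ± 0.216 in OB. Its paralog Pcolce had 10.7 ± 1.24, 22.15 ± 2.28 and 2.35 ± 0.295, and Lox, the lysyl oxidase that cross-links fibrils, had 3.92 ± 0.629, 9.64 ± 1.94 and 0.158 ± 0.0707, both called lower in MOE than in VNO.

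Collagen-degrading proteases differed more. The 5 tested of 6 were all called higher in VNO and in MOE than in OB (20.2% and 21.1% of all genes), with medians of 5.67 and 4.07. In MOE, 4 were lower than in VNO (9.73%). Mmp2, Mmp9 and Mmp13 had OB means of 0.264, 0.2645 and 0.09285 FPKM, under the minimum of 0.5. They passed it only through VNO and MOE, so their calls against OB follow in part from the filter. Ctsk, a protease of osteoclasts, had 83.3 ± 16.5, 45.1 ± 8.79 and 1.135 ± 0.276 FPKM in VNO, MOE and OB, the collagenase gene Mmp13 had 50.4 ± 5.80, 18.1 ± 2.17 and 0.09285 ± 0.0541, and the gelatinase gene Mmp2 had 52.65 ± 4.97, 12.4 ± 1.956 and 0.264 ± 0.109. Of 8 collagen receptors tested of 10, 6 were higher in VNO than in OB (20.2% of all genes). In MOE, 4 were higher than in OB (21.1%) and 5 lower than in VNO (9.73%). Itgb1, the common integrin beta chain, had 63.7 ± 3.35, 36.3 ± 6.31 and 11.8 ± 1.05 FPKM. Ddr2, which binds fibrillar collagens, had 8.07 ± 0.576, 3.68 ± 0.5175 and 1.28 ± 0.164, while Ddr1 had 10.1 ± 0.794, 5.44 ± 1.02 and 7.49 ± 0.676 and was called between no tissues. Of 14 laminin, nidogen and other basement membrane genes tested of 15, 11 were higher in VNO than in OB (20.2% of all genes). In MOE, 10 were lower than in VNO (9.73%), and 4 were higher (21.1%) and 1 lower (17.3%) than in OB. The laminin chain genes Lamb2, Lamb1 and Lamc1 had 15.5 ± 1.76, 10.25 ± 0.691 and 10.1 ± 0.678 FPKM in VNO, and 4.39 ± 1.12, 4.13 ± 0.751 and 2.865 ± 0.532 in MOE. In OB they had 3.69 ± 0.428, 1.47 ± 0.165 and 2.70 ± 0.278.

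Most markers of fibroblasts and bone cells differed between the tissues in the direction of the main collagens. Of 8 fibroblast markers, 7 were called higher in VNO than in OB (20.2% of all genes) and 6 lower in MOE than in VNO (9.73%). Their summed FPKM ranged from 259.9 to 340.4 in VNO, from 124.7 to 267.1 in MOE and from 20.9 to 27.7 in OB, where 0 of the 8 had a mean under 0.1. The proteoglycan gene Dcn had 142.1 ± 12.5, 159.1 ± 28.5 and 11.4 ± 1.32 FPKM in VNO, MOE and OB, and Lum had 103.0 ± 11.7, 48.6 ± 9.58 and 1.07 ± 0.177. Of 8 bone markers, 7 were higher in VNO than in OB (20.2% of all genes) and 6 lower in MOE than in VNO (9.73%). In MOE, 7 were higher (21.1%) and 1 lower (17.3%) than in OB. The 1 that was lower was Sp7, a transcription factor of osteoblasts, with 4.73 ± 0.791, 1.53 ± 0.307 and 5.44 ± 0.572 FPKM in VNO, MOE and OB, and it made up most of the sum of the bone markers in OB. This sum ranged from 126.6 to 209.4 in VNO, from 49.1 to 92.05 in MOE and from 7.135 to 8.85 in OB, where Ibsp, Phex and Mepe had means under 0.1. Ibsp, Phex and Mepe passed the minimum of 0.5 FPKM only through VNO and MOE, so their calls against OB follow in part from the filter. Ibsp, a protein of mineralized matrix, had 63.6 ± 9.02 FPKM in VNO and 17.1 ± 3.32 in MOE. The sum of 8 endothelial and pericyte markers ranged from 47.7 to 57.1 in VNO, 68.1 to 130.0 in MOE and 19.3 to 26.7 in OB, so that MOE was highest. Leptomeningeal markers were highest in OB (sum 414.5 to 548.9, with 40.8 to 83.3 in MOE and 12.3 to 15.6 in VNO). Sums of markers of keratinocytes and basal cells were 30.3 to 82.2, 20.7 to 38.35 and 0.542 to 0.994, those of Schwann cells and ensheathing glia 8.33 to 11.97, 7.65 to 14.75 and 143.7 to 190.7, and those of skeletal muscle 1.87 to 7.01, 0.8255 to 2.96 and 1.38 to 2.68 in VNO, MOE and OB. The part of these cells in the collagen differences was not tested.

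The cartilage collagens of types II, IX and X departed from the order of the family, while those of type XI did not. Types II, IX and XI form the cartilage fibril and type X is typical of hypertrophic cartilage. Of the 37 collagens tested, 4 were called higher in MOE than in VNO, a count near the share of all genes (11.8%). These were Col2a1, Col9a1, Col9a2 and Col10a1. The 7 cartilage collagens had a median difference of 1.07 for MOE minus VNO, where the 37 collagens had -1.27. Col2a1 (chromosome 15, 97806033 to 97835155), the chain of type II, ranged from 1.525 to 5.62 FPKM in MOE (median 3.39), from 0.448 to 13.95 in VNO (median 1.01) and from 0.0830 to 0.187 in OB (median 0.121). Col10a1 (chromosome 10, 34109787 to 34116891) ranged from 3.535 to 13.8 FPKM in MOE (median 6.92), from 0.502 to 23.5 in VNO (median 0.7825) and from 0.0772 to 0.220 in OB (median 0.1485). In both genes, 1 VNO library, SF replicate 2, lay above every MOE library, and all MOE and VNO libraries lay above all OB libraries. The MOE minus VNO difference was 1.16 for Col2a1 (standard error 0.2405, adjusted p = 6.71e-05) and 2.27 for Col10a1 (standard error 0.295, adjusted p = 4.35e-08). Under upper quartile scaling the difference of Col2a1 was 0.9992 and that of Col9a2 0.90 in place of 1.07, and neither was called, as with a pseudocount of 1 (0.94 and 0.89). Without replicate 3 of all groups, neither Col2a1 (0.93) nor Col9a2 (0.96) was called, and without replicate 1 Col9a2 was not called (0.97). These differences and the median of 1.07 include VNO SF replicate 2. Without that library, Col2a1, Col9a1, Col9a2 and Col10a1 were still called higher in MOE than in VNO. The type XI chains were higher in VNO than in MOE by less than the 2-fold limit. Col11a1 (chromosome 3, 113733458 to 113923674) ranged from 6.03 to 11.7 FPKM in VNO (median 7.02), from 3.11 to 5.65 in MOE (median 4.63) and from 1.21 to 1.70 in OB (median 1.37), without overlap. Col11a2 (chromosome 17, 34176083 to 34203629) ranged from 5.49 to 14.6 FPKM in VNO (median 7.88), from 3.42 to 5.89 in MOE (median 5.11) and from 0.783 to 1.06 in OB (median 0.930), with overlap between VNO and MOE. Their differences were -0.62 and -0.71 for MOE minus VNO.

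Type IX collagen, which coats type II fibrils, is made from the products of Col9a1, Col9a2 and Col9a3, and these chains did not go together. Col9a1 ranged from 2.62 to 4.69 FPKM in MOE (median 4.23), from 0.0550 to 1.83 in VNO (median 0.219) and from 0.124 to 0.394 in OB (median 0.2755), so that all 12 MOE libraries lay above all others. Col9a2 (chromosome 4, 120712171 to 120727930) ranged from 2.82 to 4.91 FPKM in MOE (median 3.72), from 3.13 to 4.71 in OB (median 3.56) and from 0.711 to 8.30 in VNO (median 1.27). Col9a3 (chromosome 2, 180332927 to 180356890) ranged from 1.185 to 2.96 FPKM in MOE (median 2.29), from 1.73 to 2.97 in OB (median 2.49) and from 0.565 to 4.625 in VNO (median 0.935). In OB, Col9a2 and Col9a3 thus overlapped with MOE, while Col9a1 overlapped only with VNO. The ratio of Col9a1 to Col9a2 was 1.143 ± 0.213 in MOE, above all libraries of VNO (0.187 ± 0.0810) and OB (0.0744 ± 0.0197), and that of Col9a3 to Col9a2 was 0.614 ± 0.111, 0.745 ± 0.200 and 0.668 ± 0.07795, with overlap. Between MOE and OB, the difference was 2.58 for Col9a1 (standard error 0.141, adjusted p = 1.04e-16) and -0.01 for Col9a2 (standard error 0.177, adjusted p = 0.981). Of 14 cartilage markers that are not collagens, Matn3, Comp, Chad, Epyc, Snorc and Clec3a had means under 0.1 FPKM in OB, and the sum of the 14 ranged from 9.57 to 11.5 in OB, from 42.1 to 132.0 in MOE and from 17.9 to 203.5 in VNO. Of the 12 tested, 4 were called higher and 0 lower in MOE than in VNO (11.8% and 9.73% of all genes).

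Col9a1 has alternative transcription starts, and the deposited values separate the transcripts that begin at each. The long transcript from the upstream start is the typical form of cartilage, while the short one from the downstream start, which lacks the N-terminal globular domain, is known from the eye. The starts lie 17593 bases apart on chromosome 1 of mm9, at 24184449 and 24202042 on the plus strand. The 250 bases before each start, and those before the start of Col10a1, are shown because these genes carry the differences of the cartilage collagens. They were taken from RefSeq windows on GRCm38.p6, at chr1:24177360-24177609 and chr1:24194953-24195202 for Col9a1 and at chr10:34389731-34389980 for Col10a1, on the plus strand and 5′ to 3′. Capitals mark the core motif of SOX factors, ACAAAG or ACAATG, and the TATA box TATAAA, on either strand.
Col9a1 upstream start: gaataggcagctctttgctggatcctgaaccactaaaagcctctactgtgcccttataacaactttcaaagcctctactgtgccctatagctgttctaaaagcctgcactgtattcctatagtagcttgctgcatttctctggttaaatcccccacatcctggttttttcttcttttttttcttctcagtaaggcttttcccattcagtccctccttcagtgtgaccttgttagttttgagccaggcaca
Col9a1 downstream start: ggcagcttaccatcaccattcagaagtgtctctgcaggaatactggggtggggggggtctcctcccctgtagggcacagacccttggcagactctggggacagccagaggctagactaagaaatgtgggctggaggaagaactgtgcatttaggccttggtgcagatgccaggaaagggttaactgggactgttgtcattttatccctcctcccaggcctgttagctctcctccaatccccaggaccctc
Col10a1: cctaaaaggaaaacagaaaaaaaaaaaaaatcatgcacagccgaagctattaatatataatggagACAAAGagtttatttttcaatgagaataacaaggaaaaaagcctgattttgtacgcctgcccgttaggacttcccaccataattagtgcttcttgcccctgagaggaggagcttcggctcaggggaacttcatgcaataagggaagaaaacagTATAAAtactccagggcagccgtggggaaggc
Neither Col9a1 window holds one of these motifs. The Col10a1 window holds ACAAAG from position -185 and TATAAA from position -32, counted from the start. Of the 32851 windows of this length, 25.2% hold a SOX core and 12.4% hold TATAAA. Of the 44 collagens, 35 were matched to 38 windows, of which 4 hold a SOX core and 5 hold TATAAA. A match of letters describes the window and is not evidence of binding.

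The short Col9a1 transcript made up most of the MOE signal. It had 3.65 ± 0.658 FPKM in MOE (SD, n = 12, range 2.40 to 4.65), while the long transcript ranged from 0 to 0.940 FPKM and was listed at 0 in SM replicates 2 and 3. The short form was above the long form in all 12 MOE libraries, and held 87.8% of the gene's FPKM on average, with at least 77.2% in each. In OB the short form had 0.262 ± 0.08495 FPKM, and the long form was listed at 0 in 9 of 12 libraries. In VNO the highest long value, 1.46 FPKM from an estimated 94.6 fragments, was that of SF replicate 2, where the short form had 0.3675. Such splits are Cufflinks estimates from reads that the transcripts largely share. Col2a1 also has alternative transcripts, of which the form without the cysteine-rich domain exon is typical of mature cartilage. This form had 3.54 ± 1.34 FPKM in MOE, 96.6% of the gene on average, and held all 13.95 FPKM of VNO SF replicate 2, where the other form was listed at 0.

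Within VNO, SF replicate 2 carried the highest cartilage collagens. Its values were known when it was singled out, so they are a description. Of the 38 collagens with a mean of at least 0.5 FPKM in VNO, 4 were at least 2-fold above the median of the other 11 VNO libraries on the log2(FPKM + 0.5) scale, as were 0.664% of the 13849 genes above this level. Col10a1 had 23.5 FPKM there, from an estimated 1382 fragments, where the other libraries had a median of 0.760 and at most 1.30. Col2a1 had 13.95 (median of the others 0.929, at most 1.82). Col10a1 was thus 31.0 times the median of the others, the highest ratio among the collagens. Col9a2 had 8.30 (1.21, at most 2.24) and Col9a3 had 4.625 (0.903, at most 1.24). Col9a1, whose mean was under the level, had 1.83 (0.195, at most 0.6004). The type XI chains were raised by less, with 11.7 for Col11a1 (6.93, at most 8.62) and 14.6 for Col11a2 (7.85, at most 10.4). All 7 cartilage collagens and 15 of the 44 collagens had their highest VNO value in this library. Among those with a mean of at least 0.5 FPKM in VNO these were 14 of 38 collagens, beside 5.23% of all genes. They included Col27a1, a fibrillar chain of cartilage (3.602, median of the others 1.68), and Col8a1 (9.80, median 5.73). The main chains of types I and III did not stand apart, with 300.2 for Col1a1 (median 316.5) and 242.7 for Col3a1 (median 229.4). For Col2a1, Col9a1, Col9a2, Col10a1, Col11a1 and Col11a2, CF replicate 2 had the next highest VNO value.

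**Figure D4:**
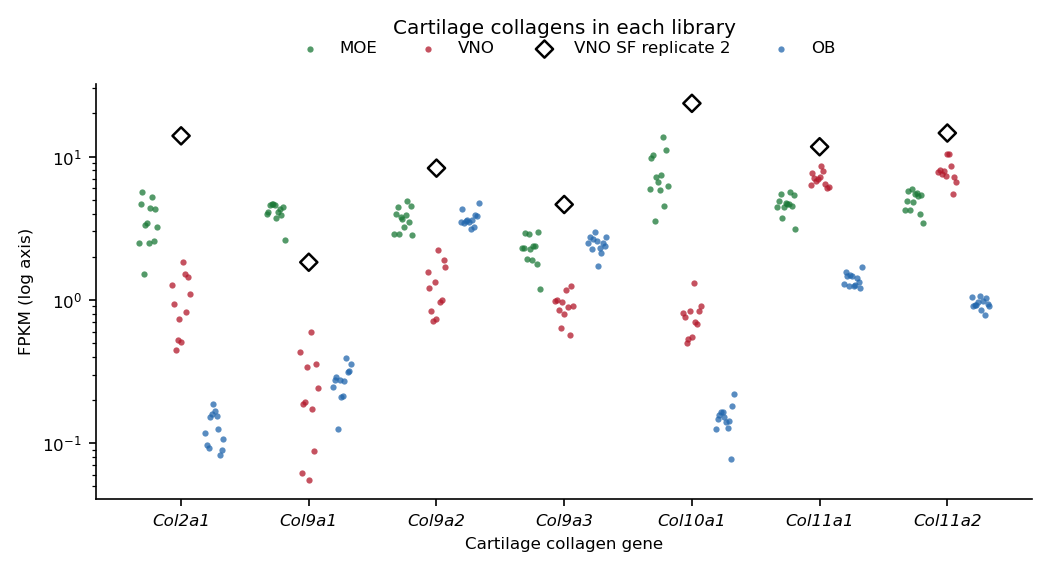
FPKM of the 7 cartilage collagens (log axis) in each of 36 libraries, with VNO SF replicate 2 as an open diamond. The diamond lies above the other 11 VNO libraries for all 7 genes and above all MOE libraries except for Col9a1, and in OB the values of Col9a2 and Col9a3 lie among those of MOE while those of Col9a1 do not.

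Other cartilage genes stood out in the same library. All 14 cartilage markers that are not collagens were above the other 11 VNO libraries, and 12 were at least 2 times their median, with a median ratio of 5.54. The sum of the 14 markers was 203.5 FPKM, where the other libraries ranged from 17.9 to 52.2. Cytl1, a cytokine-like protein of cartilage, had 109.7 FPKM (median of the others 3.26), the matrix protein gene Comp had 14.8 (4.895), and Cnmd, chondromodulin, had 11.7 (3.16). Of 8 bone markers, 0 reached 2 times the median by the same ratio, with a median ratio of 1.19 and a sum of 199.8 where the others ranged from 126.6 to 209.4. The fibroblast sum was 340.4 (others 259.9 to 326.4), and the sums of olfactory and vomeronasal sensory neuron markers were 109.9 (others 118.8 to 166.3) and 96.7 (others 99.1 to 124.9), each the lowest of the 12. Most of the olfactory list's sum in VNO came from Omp, so this sum was not read as a separate cell type. The part of the cells of these lists in the collagen values of this library was not tested. Without the library, Col10a1 was no longer called between VNO and OB (difference 0.95 in place of 1.30), Col9a3 was called lower in VNO than in OB (-1.06 in place of -0.92), and 27, 20 and 33 collagens were called between MOE and VNO, MOE and OB, and VNO and OB, where 28, 20 and 33 were called with it. In the fits of sex and housing in VNO, which include it, standard errors of collagens reached 0.841, where their median was 0.142.

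In MOE, some cartilage collagens varied together from library to library. Col2a1 and Col10a1 were both lowest in SM replicate 1, and Col2a1 was highest in SF replicate 3 and Col10a1 in CF replicate 3. Over the 12 MOE libraries, Pearson's r between them was 0.923 and Spearman's rho 0.909 (permutation tests, adjusted p = 0.0009 and 0.0018 over 18 relations of Col2a1 with the other 6 cartilage collagens in 3 tissues, raw p = 5e-05 and 0.0001), and r was 0.89 without the 2 libraries farthest from the median of Col2a1. Between Col2a1 and Col9a2, r was 0.847 and rho 0.867 (permutation tests, adjusted p = 0.00441 and 0.0045), and r was 0.822 without these libraries. For Col11a1, rho was 0.818 (adjusted p = 0.0125) and r 0.642 (adjusted p = 0.0852, permutation tests), and r was 0.469 without them, so that the relation rests in part on these libraries. For Col9a1, r was 0.117 and rho 0.182 (permutation tests, adjusted p = 0.789 and 0.855). For Col9a3 and Col11a2, r was 0.49 and 0.522 (permutation tests, adjusted p = 0.175 and 0.152). In the 11 VNO libraries without SF replicate 2, r with Col2a1 was 0.817 for Col10a1 and 0.803 for Col9a2 (permutation tests, adjusted p = 0.00828 and 0.0201), with rho of 0.709 and 0.736 (adjusted p = 0.0672 and 0.0575) and r of 0.674 and 0.691 without the 2 farthest libraries. For Col9a1, Col9a3, Col11a1 and Col11a2 in these VNO libraries, r was 0.608, 0.638, 0.193 and 0.146 (permutation tests, adjusted p = 0.119, 0.103, 0.789 and 0.789). In the 12 OB libraries no relation had an adjusted p under 0.05, and the lowest was 0.0907. Each group of sex and housing holds 3 of these libraries, too few for a value within it. In MOE the sum of the 14 other cartilage markers was also lowest in SM replicate 1 (42.1 FPKM) and highest in CF replicate 3 (132.0 FPKM), and the part of cartilage cells in the relation was not tested.

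The remaining comparisons addressed sex and housing: females and males of each housing, the housings within each sex, and the interaction, which is the sex difference (female minus male) in separated housing less that in combined housing. In limma, 0 collagens were called at an adjusted p under 0.05 in each of the 15 comparisons. In MOE, 33 collagens were tested, and the shares of all genes called were 0.102%, 0.0436%, 0.0363%, 0.0509% and 0.0654% for SF and SM, CF and CM, the interaction, SF and CF, and SM and CM. At an unadjusted p under 0.05, there were 2, 1, 2, 1 and 6 collagens in this order, beside 4.16%, 1.75%, 4.59%, 2.04% and 6.94% of all genes. Without CM replicate 3, these counts were 2, 1, 2, 2 and 1, beside 1572, 1120, 2087, 1148 and 1258 of 13800 genes. In VNO, 38 collagens were tested, and 0.0722%, 0.0433%, 0%, 0% and 0% of all genes were called. At an unadjusted p under 0.05, there were 4, 6, 2, 1 and 1 collagens, beside 8.8%, 3.94%, 5.26%, 11% and 2.33% of all genes. Without SF replicate 2, these counts were 2, 7, 9, 5 and 1, beside 1163, 549, 805, 1341 and 338 of 13838 genes. In OB, 22 collagens were tested, and 0.0391%, 0.0469%, 0.00782%, 0.00782% and 0% of all genes were called. At an unadjusted p under 0.05, there were 1, 4, 2, 2 and 0 collagens, beside 4.59%, 5.69%, 4.13%, 2.8% and 3.4% of all genes. Calls were thus rare among all genes. The median standard error of a difference between 2 groups over the collagens on the log2 scale was 0.190 for MOE, 0.142 for VNO and 0.112 for OB. Of the genes in the other lists described above, the neuronal gene Gad1 was called between SF and SM in VNO (difference -0.86, adjusted p = 0.0296).

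The collagen closest to a call was Col22a1 (chromosome 15, 71628906 to 71864657) between CF and CM in VNO. Its FPKM was 4.01, 4.035 and 3.71 in the CF libraries and 2.505, 2.345 and 2.75 in the CM libraries, so that the groups did not overlap. The difference was 0.54 (standard error 0.0875, 95% interval 0.353 to 0.735, unadjusted p = 4.86e-05, adjusted p = 0.0748, limma). In the separated housing, SF had 3.37, 4.32 and 3.855 and SM had 3.21, 3.12 and 3.14, again without overlap and with females higher. That difference was 0.25 (standard error 0.0875, adjusted p = 0.520), and the interaction was -0.30 (95% interval -0.569 to -0.0285, adjusted p = 0.895). All SM libraries also lay above all CM libraries. The difference between SM and CM was 0.27 (95% interval 0.0799 to 0.462, unadjusted p = 0.00944, limma) and was not called. Col22a1 passed the threshold between CF and CM under upper quartile scaling (adjusted p = 0.0237) and quantile normalization (adjusted p = 0.0221), and when SF replicate 1 (adjusted p = 0.0343) or SF replicate 2 (adjusted p = 0.0490) was left out of the VNO fit. In MOE the CF libraries had 1.56, 1.23 and 1.11 and the CM libraries 0.956, 1.17 and 0.773 FPKM, with overlap and a 95% interval of the difference of -0.0732 to 0.670. In OB, Col22a1 did not exceed 0.123 FPKM and was not tested.

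Col1a1 had the smallest unadjusted p among the collagens in 7 of the 15 comparisons. In MOE its FPKM was 50.95, 33.6 and 54.9 in SF, 75.01, 80.95 and 62.0 in SM, 92.7, 64.8 and 57.5 in CF, and 57.6, 55.6 and 51.1 in CM. All SF libraries lay below all SM libraries, while CF and CM overlapped. In VNO it was 251.5, 300.2 and 303.1 in SF, 359.1, 394.1 and 290.1 in SM, 351.7, 360.3 and 342.2 in CF, and 284.0, 305.0 and 316.5 in CM. There all CF libraries lay above all CM libraries, while SF and SM overlapped. In OB it was 1.87, 2.27 and 1.67 in SF, 2.35, 1.998 and 1.47 in SM, 4.72, 2.17 and 3.997 in CF, and 2.57, 1.29 and 1.72 in CM, and both pairs overlapped. The interaction estimate was -1.02 in MOE (95% interval -1.73 to -0.307), -0.50 in VNO (-0.911 to -0.0902) and -0.78 in OB (-1.52 to -0.0402), with adjusted p of 0.963, 0.895 and 0.999 in limma, so that none passed the threshold. For its partner Col1a2, the 95% intervals of the interaction were -1.24 to 0.1595, -0.9105 to 0.00291 and -0.847 to 0.184 in MOE, VNO and OB. Col1a1 was named for its small p-values, and its intervals are not adjusted for the number of genes. By the study's text the tissues came from the same mice, so the 3 estimates are not separate observations. In the OB interaction, 2 collagens had an unadjusted p under 0.05 in limma (4.13% of all genes), Col1a1 among them. Without CF replicate 1 there were 0 (368 of 12808 genes).

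**Figure D5:**
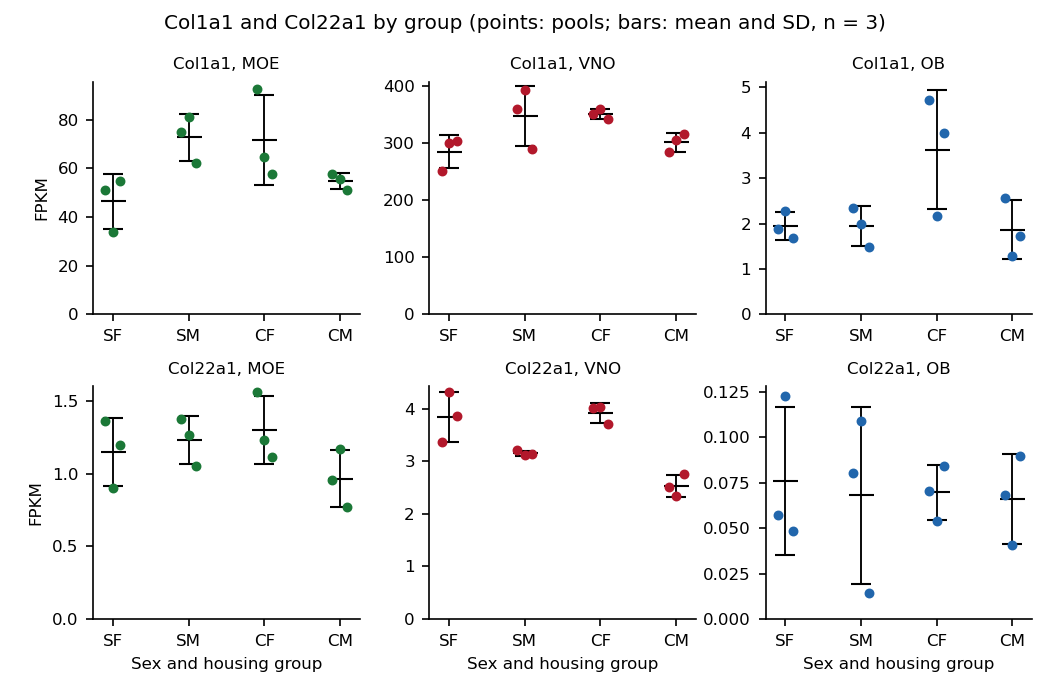
FPKM of Col1a1 (top) and Col22a1 (bottom) in the 4 groups of each tissue, with 3 pools per group as points and the mean and SD as bars, on axes from 0. The CF values of Col22a1 in VNO lie above the CM values, and CF replicate 1 has the highest Col1a1 value in OB (4.72 FPKM).

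In the comparisons led by other collagens, the smallest unadjusted p belonged to Col13a1 between CF and CM in MOE (difference 0.42, adjusted p = 1), Col16a1 between SM and CM in MOE (0.42, adjusted p = 0.699), Col4a2 between SF and SM in OB (-0.28, adjusted p = 1), and Col9a2 between SM and CM in OB (-0.20, adjusted p = 1) and in the OB interaction (0.34, adjusted p = 0.999). The comparison of SM and CM in MOE includes CM replicate 3, the library with lower values in general, and its median difference was 0.174 over all genes and 0.245 over the collagens. Without that library, the median over all genes was -0.0161. Apart from VNO SF replicate 2, 2 single values lay at least 2-fold above the median of the other 11 libraries of their tissue among collagens with a mean of at least 0.5 FPKM, Col10a1 in MOE CF replicate 3 (13.8 FPKM) and Col1a1 in OB CF replicate 1 (4.72 FPKM). By the same measure, 0 collagens lay 2-fold below that median in the 36 libraries.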

How the data were processed

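RNA-seq was performed on 36 libraries of pooled total RNA depleted of ribosomal RNA. Per the labels' processing notes, the authors used TopHat2 2.1.0 and Cufflinks 2.2.1.0 with the build mm9, and the deposited values are FPKM per RefSeq transcript, with 95% confidence limits. Options and the strand setting are not given in the sources used here.

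Transcripts were assigned to gene symbols by accession (99.7% of entries) and FPKM was summed by gene. Genes with an entry not marked as successful were left out (5 in MOE, 1 in VNO and 1 in OB, 0 of them collagens). Fragment numbers were estimated from each FPKM and its 95% limits and cover counting error only. limma 3.58.1 in R 4.3.3 (lmFit, eBayes with a trend) was applied to log2(FPKM + 0.5), which understates changes of low genes, for genes with a mean of at least 0.5 FPKM, with Benjamini-Hochberg adjustment over all genes tested. Tissues were compared in 1 fit of 36 libraries and 12 groups, and sex and housing in 1 fit per tissue of 12 libraries and 4 groups. The interaction is SF minus SM, less CF minus CM. Lists were described by counts and medians without a set test. A gene of the bone list is not reported here and is left out of that list's counts and sums. Correlations used 100000 permutations. Python 3.11.15, numpy 2.4.6, pandas 2.3.3, scipy 1.17.1 and matplotlib 3.10.9 were used, and the fits were tested on simulated data. The members, gene lists, rules for naming genes and tests were chosen with earlier results of these data known. By rule, values are given for each member, with the range in each tissue for the highest member of each class and the cartilage collagens, for the member with the smallest p in each comparison of sex and housing, for the 3 highest genes of each list of collagen-related genes, and for collagens at least 2-fold from the other libraries of a tissue. Other markers were named after their values were seen. Promoter windows came from RefSeq on GRCm38.p6, whose coordinates were not mixed with those of mm9. Alternatives were pseudocounts of 0.1 and 1, no filter, upper quartile and quantile scaling, a replicate block, fits on the compared groups only, and libraries left out.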

Additional observations from a re-analysis of the deposited data

How the results depend on the processing

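The counts of collagens called between tissues (28 for MOE and VNO, 20 for MOE and OB, 33 for VNO and OB) were 31, 22 and 34 with a pseudocount of 0.1 and 20, 17 and 30 with a pseudocount of 1, and the other alternatives stayed within these bounds. Between CF and CM in VNO, the 0 collagens called became 1, Col22a1, under upper quartile scaling and quantile normalization, and ranged from 0 to 1 with single libraries left out. No other count of collagens in the comparisons of sex and housing changed. Of 126 single results, 96 kept their direction and side of the threshold under every alternative run. The direction turned only for genes that were not called between the tissues. Under quantile normalization, the MOE minus OB difference became -0.17 for Col15a1, -0.20 for Col25a1, -0.29 for Col5a3 and -0.097 for Col7a1, and the VNO minus OB difference of Col9a1 became -0.42. That of Col9a1 was -0.011 with a pseudocount of 0.1, -0.15 without replicate 2 of all groups and -0.075 without VNO SF replicate 2. The MOE minus OB difference of Col9a2 became 0.0026 under upper quartile scaling, 0.068 without replicate 1 and 0.031 without MOE CM replicate 3. Leaving out replicate 1, 2 or 3 gave values from -0.0424 to 0.068 for Col9a2 and from -0.15 to 0.206 for Col9a1. The cause was not tested. Leaving out MOE CM replicate 3, and the alternative settings for VNO SF replicate 2 (4 collagens under each), were chosen after seeing the data.

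By the study's text the 3 tissues came from the same mice, but the labels do not say that a pool number marks the same mice in each tissue. Deviations from the group means correlated at over 0.1 in 1, 3 and 1 of 12 pairs of the same pool name for MOE and VNO, MOE and OB, and VNO and OB. Within a tissue, the labels tie no number to a shared animal or batch, and the numbers were not taken to pair the samples. Of 18 pairs of the same number, 3, 8 and 2 correlated at over 0.1 in MOE, VNO and OB. This limit has no reference distribution, and a shared effect of the number in VNO was not tested. With a replicate block, 28, 20 and 33 collagens were called between tissues and 0 in each comparison of sex and housing. In VNO, the collagens at an unadjusted p under 0.05 in limma went with the block from 4, 6 and 2 to 7, 9 and 6. This was for SF and SM, CF and CM, and the interaction. Over all 13849 genes the counts went from 1219, 545 and 728 to 1315, 605 and 820. Counts over all genes in the comparisons of sex and housing moved by over 1.5 times. For SF and SM, CF and CM, the interaction, SF and CF, and SM and CM, they ranged over the alternatives from 8 to 20, 6 to 17, 2 to 11, 2 to 12 and 3 to 45 in MOE (14, 6, 5, 7 and 9 as reported), from 5 to 12, 6 to 11, 0 to 3, 0 to 4 and 0 to 5 in VNO (10, 6, 0, 0 and 0), and from 5 to 8, 6 to 12, 1 to 4, 1 to 4 and 0 to 2 in OB (5, 6, 1, 1 and 0). The 45 came from fits on only the groups compared.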
